A study of Rattus norvegicus with 8 samples.

Results

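The 31 genes described here make, take up, store or export cholesterol, or control those steps, in rat oligodendrocyte precursor cells. They were chosen by symbol from a table of 32662 rows, and all 31 were found on a single row each. Each passed the filter on low values (at least 1 FPKM in at least 4 of 8 samples), as 11149 rows did in all. FPKM, the unit of every level below, counts fragments per kilobase of a gene and relative to the size of its library. The cells were primary cultures of Sprague Dawley rats, started from mixed glia of pups aged 1 to 2 days, collected as the cells that did not adhere, and grown for 4 to 5 days with PDGF and FGF at 10 ng/ml each. The comparison set 4 control samples against 4 that spent 6 h in oxygen glucose deprivation (OGD), which withholds both to imitate ischaemia in a dish. For all 8 samples 20% serum, 2 mM glutamine, 2% B27 and 1% antibiotic are also recorded, and the culture step of each is not given here. No genetic change or other drug is recorded for either group, and the labels do not state whether replicates came from separate cultures. The p-values therefore rest on the variation among these 8 samples alone, part or all of which may be technical.

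Cholesterol is built from acetyl-CoA through mevalonate, isoprenoids and squalene, and several enzymes after squalene consume molecular oxygen. Transcription of the pathway is driven by the SREBP factors, which the escort protein SCAP carries from the endoplasmic reticulum to the Golgi for cleavage, and which INSIG proteins hold back when sterols are plentiful. Cholesterol is a main lipid of myelin, and cells of the oligodendrocyte lineage make much of their own. Surplus sterol is esterified or leaves the cell through ABC transporters to apolipoproteins, a route driven by the liver X receptors.

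Of the 31 genes, 13 rose and 3 fell, and 15 missed the threshold (limma on log2(FPKM + 1), Benjamini-Hochberg adjusted over all 11149 genes, called at an adjusted p under 0.05). Among all tested genes 49.5% passed, 22.7% upward and 26.8% downward, against 41.9% and 9.68% of the 31. The median log2 change of the 31 was 0.25, where that of all tested genes was -0.04. Rises were found in Scap, among the retention proteins, among isoprenoid and late sterol enzymes and in Npc1 and Soat1, and falls in Npc2, Abcg1 and Apoe. All 4 OGD samples lay above all 4 control samples for 13 of the 31 genes and below them for 3, where the shares over all tested genes were 20.7% and 24.1%, together 44.7%. Only Insig2 changed by more than 1 on the log2 scale. Leaving out control replicate 4 and OGD replicate 4, the libraries with the highest microglial signal of their groups, gave 12 rises and 3 falls. The microglial difference between the groups was no smaller without them, with a log2 ratio of summed markers of -1.34 against -1.32.

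**Figure D1:**
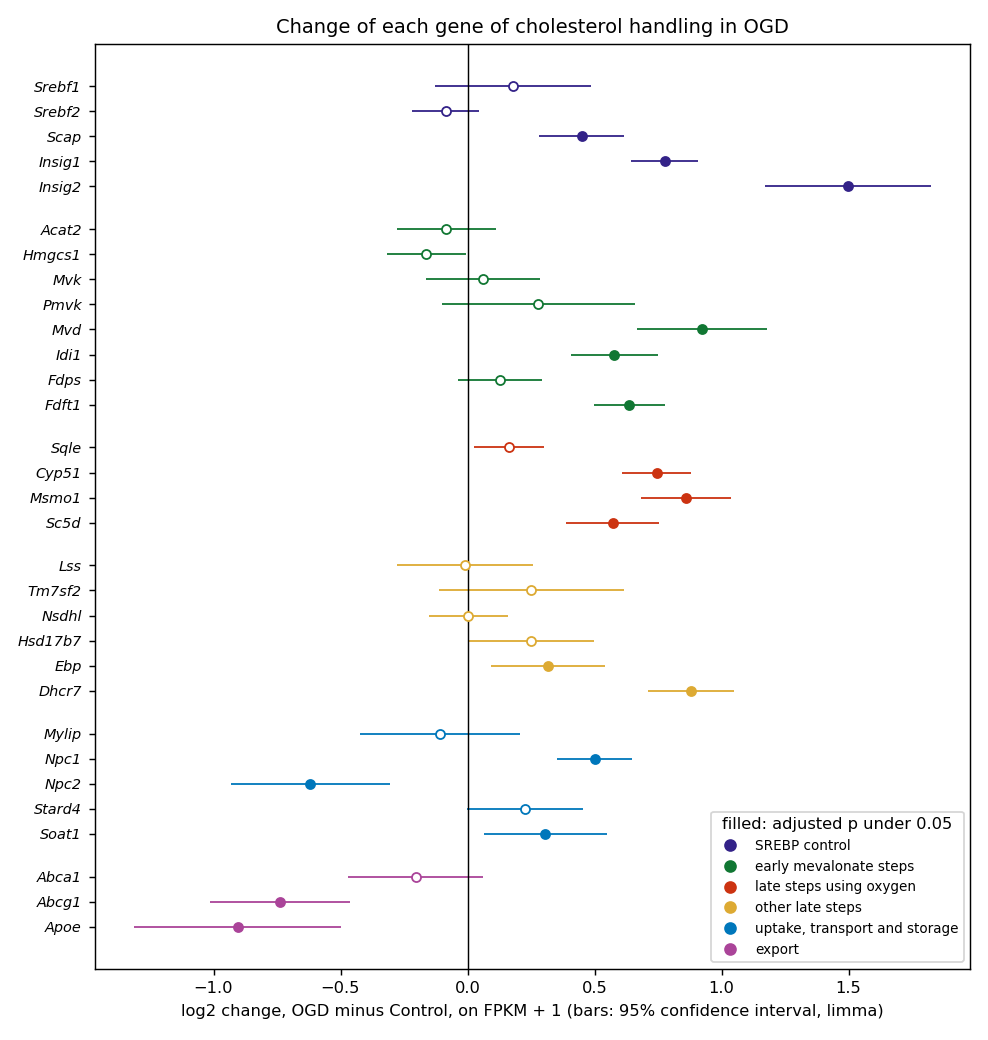
Log2 change of each of the 31 genes, OGD minus control on the FPKM + 1 scale (horizontal axis), with 95% confidence intervals from limma and colours for the 6 roles. Filled points passed the adjusted threshold of 0.05: 13 lie right of 0 and 3, Npc2, Abcg1 and Apoe, lie left of it.

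The cultures expressed the markers of their labelled type. Olig1 and Olig2, transcription factors of the lineage, stood at 794 ± 41.4 and 297 ± 11.2 FPKM in the controls and at 357 ± 28.0 and 286 ± 25.7 FPKM in OGD samples (SD, n = 4 each), and 5 of 7 precursor markers fell. Microglial RNA was present too: 12 matched markers, none of them at 0 in any sample, summed to 268 to 416 FPKM in control and 101 to 173 FPKM in OGD samples, and 11 of the 12 fell. Of all tested genes 26.8% fell, against 71.4% of the precursor and 91.7% of the microglial markers. Astrocyte markers summed to 219 to 237 and 214 to 224 FPKM, with 1 of 7 tested markers (Gfap) falling. Slc1a3 and Sparcl1, the most abundant of these, stood at 63.4 ± 2.67 and 57.3 ± 4.42 FPKM in the control group and, after OGD, at 60.1 ± 2.49 and 52.8 ± 2.05 FPKM (SD, n = 4 each), and neither passed the test. Most of the astrocyte sum came from Slc1a3, Sparcl1, Aldoc and Sox9. Gfap and Gja1 averaged only 2.16 and 2.11 FPKM in control samples. Aqp4 and Aldh1l1, at 0.343 and 0.150 FPKM there, were under the filter. The sum therefore gives no share of astrocytes, which was not tested. All 9 matched vascular and stromal markers were under the filter, with sums of at most 0.482 FPKM. Kdr and Cdh5, the highest of them, averaged 0.110 and 0.0899 FPKM in control samples, and Cldn5, Dcn and Rgs5 were listed at 0 in every sample. Sequencing depth could be read only relative to control replicate 1, from the spacing of low values, and lay between 0.816 and 1.18 times that of this library.

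Promoter windows are shown for a retention protein, 2 rising enzymes and an enzyme that did not pass the test, because the genes of this pathway are known for shared regulatory letters close to their starts. RefSeq windows of the 250 bases before an annotated start (build GRCr8) existed for 26 of the 31 genes, 29 windows in all. The box CCAAT, bound by the factor NF-Y that acts beside SREBPs, was searched on both strands. So were ACGTG, a form of the core of hypoxia response elements, and TCACNCCAC, a form of the sterol regulatory element. Other forms of these elements were neither searched nor marked. Each sequence runs 5′ to 3′ on the gene's strand, with CCAAT (or ATTGG, its reverse) and ACGTG (or CACGT) in capitals; CACGTG holds ACGTG on both strands.
Insig1 (chr4:8057770-8058019, minus strand): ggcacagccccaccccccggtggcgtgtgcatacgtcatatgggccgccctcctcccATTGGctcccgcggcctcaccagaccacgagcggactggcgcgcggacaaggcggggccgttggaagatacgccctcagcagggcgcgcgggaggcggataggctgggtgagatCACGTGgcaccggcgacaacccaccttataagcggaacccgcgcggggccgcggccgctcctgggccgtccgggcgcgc
Msmo1 (chr16:29746863-29747112, plus strand): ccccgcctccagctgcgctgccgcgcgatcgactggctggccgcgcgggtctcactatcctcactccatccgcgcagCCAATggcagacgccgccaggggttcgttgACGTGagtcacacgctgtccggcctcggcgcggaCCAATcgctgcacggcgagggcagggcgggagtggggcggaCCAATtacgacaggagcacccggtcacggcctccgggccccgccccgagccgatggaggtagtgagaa
Mvd (chr19:67414975-67415224, minus strand): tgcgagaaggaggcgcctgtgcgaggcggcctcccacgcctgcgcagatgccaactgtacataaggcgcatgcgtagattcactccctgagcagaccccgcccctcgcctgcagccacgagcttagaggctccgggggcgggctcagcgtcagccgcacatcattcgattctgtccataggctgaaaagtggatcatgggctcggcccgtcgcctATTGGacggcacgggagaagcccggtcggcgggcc
Mvk (chr12:47819504-47819753, minus strand): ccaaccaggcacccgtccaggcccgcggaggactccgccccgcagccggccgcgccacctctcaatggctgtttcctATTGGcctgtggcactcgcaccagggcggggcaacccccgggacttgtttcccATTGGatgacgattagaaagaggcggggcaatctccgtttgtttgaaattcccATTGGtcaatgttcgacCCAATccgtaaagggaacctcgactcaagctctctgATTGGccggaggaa
Among the 29 windows 72.4% held CCAAT, against 34.0% of the 33469 windows in the RefSeq table. It was present in 8 of the 12 windows of rising genes and in 13 of the 17 windows of the others, so it was common to both. Mvk, with 5 copies, did not pass the test. ACGTG was in 27.6% of the 29 windows and 16.6% of all windows, 6 of 12 for rising genes (Insig1, Insig2, Msmo1, Npc1, Sc5d and Scap) and 2 of 17 for the others (Abca1 and Apoe). TCACNCCAC was in none of the 29 windows and in 0.974% of all windows, which says only that these letters are not there. These shares describe letters, not bound sites. In Insig1, Sc5d, Scap and Abca1 ACGTG was found only within CACGTG, which reads alike on both strands. In Insig2, Msmo1, Npc1 and Apoe it was found on a single strand. Both forms were counted together, and a link of either to hypoxia was not tested.

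Among the 5 genes of SREBP control, 3 rose, 0 fell and 2 did not pass, where 22.7% of all tested genes rose and 26.8% fell. Insig2 (ENSRNOG00000002478), which anchors the SCAP-SREBP complex in the endoplasmic reticulum, stood at 3.62, 3.67, 3.88 and 5.02 FPKM in control replicates 1 to 4 and at 14.0, 9.52, 13.9 and 16.1 FPKM in OGD replicates 1 to 4. Every OGD sample lay above every control sample, with OGD replicate 2 the lowest of its group. The means differed 3.30-fold, and the log2 change was 1.5 ± 0.15 (SE; limma, adjusted p = 2.11e-05), the 100th by size among all tested genes.

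Insig1 (ENSRNOG00000006859), the second retention protein and itself an SREBP target, was more abundant and changed less. It stood at 36.2, 35.7, 35.1 and 38.3 FPKM in the controls and at 59.1, 63.4, 64.8 and 64.7 FPKM in OGD samples. The groups were far apart, 1.73-fold by their means, or 0.78 ± 0.06 on the log2 scale (SE; limma, adjusted p = 3.91e-06). Insig1 exceeded Insig2 by 7.63 to 10.0 times in control samples and by 4.01 to 6.66 times in OGD samples, ranges that do not overlap; this ratio was chosen after the values had been seen and was not tested.

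Scap (ENSRNOG00000020853), the escort protein, stood at 14.2, 15.5, 15.3 and 14.9 FPKM in the controls and at 22.6, 21.5, 20.8 and 18.5 FPKM in OGD samples. All 4 OGD values were higher than all control values, and the log2 change was 0.45 ± 0.08 (SE; limma, adjusted p = 6.60e-04). The transcription factors themselves did not pass. Srebf2, the factor of sterol genes, ranged from 53.5 to 58.2 FPKM in control and from 48.8 to 54.5 FPKM in OGD samples, with a 95% confidence interval of the log2 change from -0.22 to 0.05. Srebf1, better known for fatty acid genes, was near 1 FPKM: 1.15 to 1.39 FPKM in control and 1.29 to 2.22 FPKM in OGD samples, with an interval from -0.13 to 0.48. Per unit of length Srebf2 exceeded Srebf1 by 38.6 to 50.5 times in control samples and by 24.5 to 42.1 times in OGD samples. This ratio too was chosen after the values had been seen and was not tested. The table gives 1 value per gene, so the isoforms of Srebf1 could not be told apart.

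**Figure D2:**
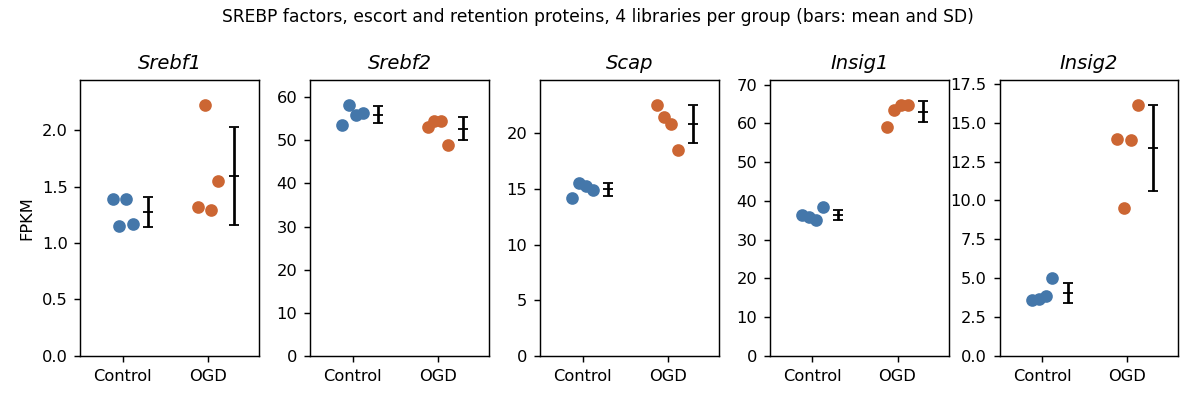
FPKM (vertical axes, from 0) of the 5 genes of SREBP control in each control (blue) and OGD (orange) library, with mean and SD beside the points. Scap, Insig1 and Insig2 show no overlap between the groups, whereas Srebf1 and Srebf2 do.

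The 18 enzymes of the pathway listed here split into 8 that rose, 0 that fell and 10 that did not pass. These shares were 44.4% up and 0% down, against 22.7% and 26.8% of all tested genes. Their median log2 change was 0.26, where that of all tested genes was -0.04. In the early part, from acetyl-CoA to squalene, 3 of 8 rose (37.5%). Those 3 act from mevalonate diphosphate onward, as does Fdps, which did not pass. Mvd (ENSRNOG00000013376), which makes isopentenyl diphosphate, stood at 22.7, 15.3, 18.4 and 19.8 FPKM in the controls and at 32.4, 36.1, 42.6 and 36.2 FPKM in OGD samples. Its lowest OGD value was well above its highest control value. The log2 difference was 0.92 ± 0.12 (SE; limma, adjusted p = 1.06e-04), the largest of the 18 enzymes.

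Fdft1 (ENSRNOG00000021314), squalene synthase, the first enzyme committed to sterols, stood at 38.3, 38.6, 37.6 and 39.1 FPKM in the controls and at 56.4, 57.5, 64.9 and 62.7 FPKM in OGD samples. Control values were nearly the same in all 4 samples, and OGD values were 1.57-fold higher on average (log2 change 0.64 ± 0.06 SE; limma, adjusted p = 2.09e-05). Idi1 (ENSRNOG00000016690), the isomerase of isopentenyl diphosphate, was at 39.9 to 43.5 FPKM in the controls and at 58.3, 59.8, 72.5 and 58.2 FPKM in OGD samples. OGD replicate 3 stood apart from the other 3, all of which were above every control (log2 change 0.58 ± 0.08 SE; limma, adjusted p = 1.69e-04).

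The enzymes at the entry of the pathway did not pass. Hmgcs1 (ENSRNOG00000016552), which makes HMG-CoA and had the highest mean of the 18 enzymes in control but not in OGD samples, stood at 169.7, 167, 162 and 166 FPKM in the controls and at 138, 139.9, 168 and 149 FPKM in OGD samples. In 3 of 4 OGD samples it was below every control, while OGD replicate 3 lay within the control range (log2 change -0.16, 95% confidence interval -0.32 to -0.01; limma, adjusted p = 0.0782). Without that library it passed, at -0.22 (adjusted p = 0.0137), and with median-centred values it passed at -0.19 (adjusted p = 0.0495; range over all alternatives 0.0137 to 0.781).

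Acat2, the cytosolic thiolase that makes acetoacetyl-CoA, was at 33.0 to 34.3 FPKM in control and 26.9 to 37.1 FPKM in OGD samples. Mvk and Pmvk, the kinases that phosphorylate mevalonate, were at 13.5 to 19.7 and 13.7 to 22.5 FPKM in the controls and at 16.6 to 17.4 and 19.3 to 31.8 FPKM in OGD samples. Fdps, the farnesyl diphosphate synthase, was at 132 to 155 FPKM in control and 147 to 168 FPKM in OGD samples. The groups overlapped for all 4, with adjusted p from 0.187 (Fdps) to 0.649 (Mvk) by limma. Fdps passed on 2 other scalings, at a log2 change of 0.25 after quantile normalization and 0.16 when rescaled outside mitochondrially encoded genes. Hmgcs1 stood 4.26 to 4.44 times above Fdft1 in control samples and 2.37 to 2.60 times above it in OGD samples, a pair chosen after the values had been seen and not tested.

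**Figure D3:**
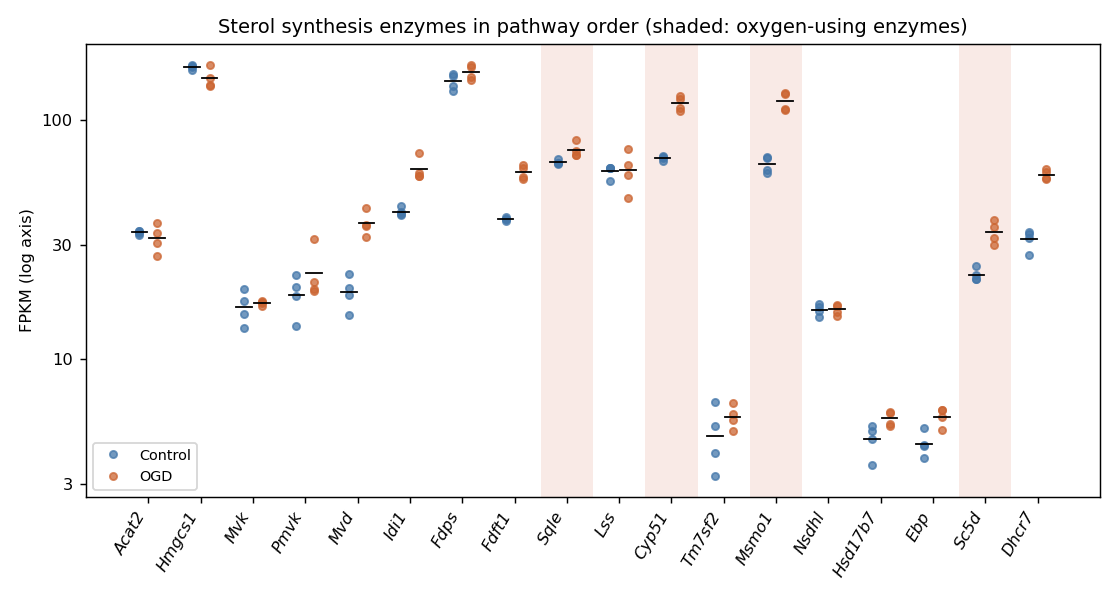
FPKM (log axis) of the 18 sterol synthesis enzymes from acetoacetyl-CoA formation at left to the last reductase at right, 1 point per library (control blue, OGD orange), bars at group means, and shading over the 4 enzymes that use oxygen. The groups are apart at Mvd, Idi1 and Fdft1, at the 4 shaded enzymes and at Hsd17b7 and Dhcr7, and overlap at the other 9.

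After squalene, 5 of 10 enzymes rose and 0 fell, against 22.7% and 26.8% of all tested genes. The 4 that consume oxygen themselves were higher in every OGD sample than in any control sample, as were 20.7% of all tested genes. Of these 4, 3 passed the test. Mvd and Dhcr7, which use no oxygen, changed by 0.92 ± 0.12 and 0.88 ± 0.08 on the log2 scale (SE). The largest change of the 4 was that of Msmo1, at 0.86 ± 0.08 (SE). Differences between these genes were not tested. Cyp51 (ENSRNOG00000007234), the lanosterol demethylase, stood at 70.7, 67.4, 69.8 and 69.1 FPKM in the controls and at 112, 109, 121 and 125 FPKM in OGD samples, 1.69-fold higher by the means (log2 change 0.74 ± 0.06 SE; limma, adjusted p = 7.08e-06). Msmo1 (ENSRNOG00000032297), the methylsterol oxidase that acts after it, stood at 68.8, 61.5, 59.9 and 70.1 FPKM in the controls and at 109, 110.3, 128 and 129 FPKM in OGD samples (log2 change 0.86 ± 0.08 SE; limma, adjusted p = 1.49e-05). These enzymes act close to each other and had similar levels, near 65 to 69 FPKM in control and 117 to 119 FPKM in OGD samples by the means.

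Sc5d (ENSRNOG00000008305), the lathosterol desaturase, stood at 21.6, 24.5, 21.6 and 22.3 FPKM in the controls and at 32.1, 35.7, 38.2 and 30.1 FPKM in OGD samples (log2 change 0.57 ± 0.08 SE; limma, adjusted p = 2.80e-04). Sqle (ENSRNOG00000009550), squalene epoxidase and the entry to the oxygen-using part, differed least of the 4. It stood at 66.0, 68.6, 66.1 and 65.3 FPKM in the controls and at 70.9, 71.3, 82.1 and 74.2 FPKM in OGD samples. The groups did not overlap, but the difference of 0.16 on the log2 scale missed the threshold (95% confidence interval 0.02 to 0.30; limma, adjusted p = 0.0517). It passed with quantile normalization (0.26), when rescaled outside mitochondrially encoded genes (0.20) and without a filter (0.16), with adjusted p from 0.00304 to 0.145 over all alternatives.

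The late enzymes that use no oxygen were mixed. Dhcr7 (ENSRNOG00000020776), the reductase that turns 7-dehydrocholesterol into cholesterol, stood at 33.2, 32.0, 27.3 and 34.0 FPKM in the controls and at 56.2, 57.0, 61.9 and 60.4 FPKM in OGD samples. Every OGD sample was above every control, 1.86-fold by the means (log2 change 0.88 ± 0.08 SE; limma, adjusted p = 9.39e-06). Ebp, the sterol isomerase, was low, at 3.88 to 5.13 FPKM in control and 5.06 to 6.14 FPKM in OGD samples, and its rise of 0.32 (adjusted p = 0.0245) was lost when any of control replicates 2, 3 or 4 or OGD replicates 2 or 4 was left out (adjusted p = 0.0532 to 0.0694).

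The other four did not pass. Hsd17b7, a ketoreductase, ranged from 3.60 to 5.23 FPKM in control and from 5.24 to 6.02 FPKM in OGD samples, groups that just failed to touch (adjusted p = 0.0851). Tm7sf2, a sterol reductase, ranged from 3.24 to 6.60 and from 4.99 to 6.53 FPKM (log2 change 0.25, adjusted p = 0.229), and passed without control replicate 1 (0.39, adjusted p = 0.0451). Nsdhl, the decarboxylating dehydrogenase, was at 16.1 ± 0.851 and 16.1 ± 0.822 FPKM (SD, n = 4 each), with a 95% confidence interval of the log2 change from -0.15 to 0.16. Lss, which cyclises squalene epoxide to lanosterol, varied more among OGD samples, at 46.8, 58.4, 75.7 and 64.4 FPKM, than among control samples, at 62.9, 62.6, 55.3 and 63.0 FPKM.

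Cholesterol taken up in lipoproteins leaves the lysosome through NPC2, which binds it in the lumen, and NPC1, which passes it through the membrane. The genes of these partners changed in opposite directions. Npc1 (ENSRNOG00000012016) stood at 14.3, 16.0, 15.2 and 14.9 FPKM in the controls and at 21.8, 23.2, 21.1 and 21.1 FPKM in OGD samples, with no overlap (0.50 ± 0.07 on the log2 scale, SE; limma, adjusted p = 1.54e-04). Npc2 (ENSRNOG00000012062) stood at 38.9, 41.8, 38.1 and 51.4 FPKM in the controls and at 22.7, 27.3, 23.9 and 36.6 FPKM in OGD samples. Every OGD value of Npc2 was below every control value, and replicate 4 was the highest of both groups (log2 change -0.62 ± 0.14 SE; limma, adjusted p = 0.00433). Npc2 exceeded Npc1 by 2.51 to 3.45 times in control samples and by 1.04 to 1.74 times in OGD samples. This ratio follows from the 2 changes above, was chosen after the values had been seen and was not tested.

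The other genes of uptake and storage differed less. Soat1, which esterifies cholesterol for storage, was at 9.30 to 14.1 FPKM in control and 12.9 to 14.6 FPKM in OGD samples, overlapping groups of which control replicate 4 was the highest control. Its log2 change of 0.31 passed narrowly (adjusted p = 0.0383) and missed the threshold under quantile normalization (0.0565), median-centring (0.0568) and no filter (0.0673), and when control replicate 1, 2 or 3 or OGD replicate 1, 2 or 4 was left out (0.0714 to 0.0984). Stard4, a cytosolic sterol carrier, was at 9.48 to 11.5 and 10.6 to 14.6 FPKM (adjusted p = 0.0905), and passed without OGD replicate 2 (0.0409). Mylip, a ubiquitin ligase that degrades lipoprotein receptors and a target of the liver X receptors, was at 1.20 to 2.13 and 1.09 to 1.49 FPKM (adjusted p = 0.560).

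Export genes were lower. Of the 3, 2 fell and 1 did not pass, and all 3 changes were below 0. Among all tested genes 26.8% fell and 53.7% had a change below 0. Apoe (ENSRNOG00000018454), the main lipid-carrying apolipoprotein of brain and the most abundant of the 31 genes, stood at 301, 338, 301 and 471 FPKM in the controls and at 136, 203, 169.5 and 248 FPKM in OGD samples. All OGD values were below all control values, and replicate 4 was again the highest of both groups. The control mean was 1.87-fold the OGD mean (log2 change -0.91 ± 0.18 SE; limma, adjusted p = 0.00214).

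Abcg1 (ENSRNOG00000001158), a transporter that loads sterol onto lipoprotein particles, stood at 4.22, 5.81, 5.90 and 4.73 FPKM in the controls and at 2.71, 2.68, 2.20 and 3.15 FPKM in OGD samples. The groups did not overlap (log2 change -0.74 ± 0.13 SE; limma, adjusted p = 7.15e-04). Abca1, which hands cholesterol to lipid-poor apolipoproteins, was at 3.22 to 4.34 FPKM in control and 2.56 to 3.60 FPKM in OGD samples, with a 95% confidence interval of the log2 change from -0.47 to 0.06 (adjusted p = 0.181).

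Microglia express Apoe, Npc2 and Abcg1 as well, and the microglial sum was 311 ± 70.9 FPKM in control and 125 ± 32.8 FPKM in OGD samples (SD, n = 4 each). Fcer1g and C1qa, its most abundant markers, changed by -0.91 and -1.62 on the log2 scale. In both groups replicate 4 had the highest microglial sum (416 and 173 FPKM), as it had for Apoe and Npc2 but not, in control, for Abcg1. Without replicate 4 of both groups the log2 changes were -0.90 for Apoe, -0.67 for Npc2 and -0.83 for Abcg1, all past the threshold. The log2 ratio of the microglial sums was then -1.34, against -1.32 with all samples. This omission therefore left the microglial difference between the groups in place and cannot separate it from these 3 changes. In bulk samples fewer cells of a type and less RNA per cell cannot be told apart, and the part of microglial RNA in these 3 changes was not tested.

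**Figure D4:**
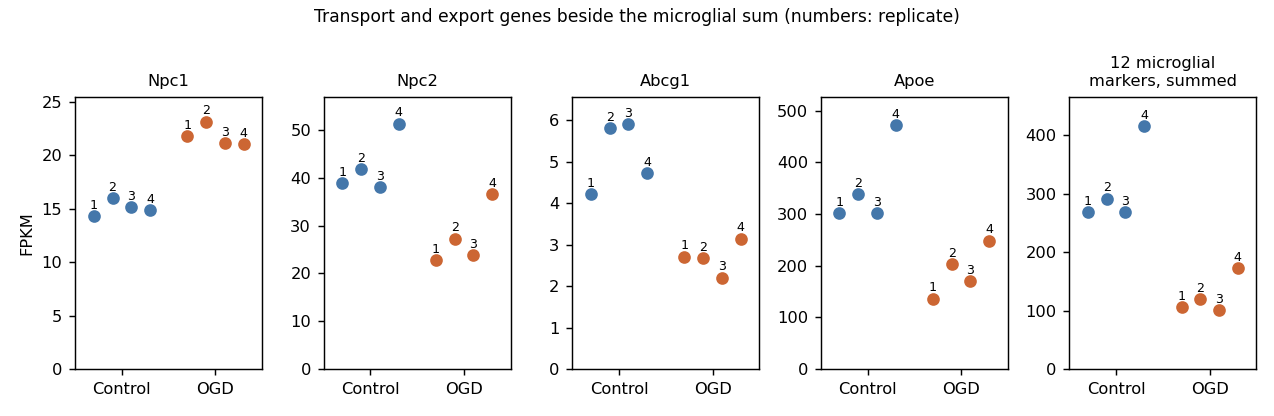
FPKM (vertical axes, from 0) of Npc1, Npc2, Abcg1 and Apoe and of the sum of 12 microglial markers, 1 numbered point per library (control blue, OGD orange). Npc1 is higher in all 4 OGD libraries, the other 3 genes and the sum are lower, and replicate 4 is the highest of its group for Npc2, for Apoe and for the sum.

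A further list of 43 genes of sterol handling was read in the same fit. Of 35 tested, 11 rose, 8 fell and 16 did not pass, with a median log2 change of 0.07; 7 were under the filter and 1 had no row. These shares, 31.4% up and 22.9% down, lie near the 22.7% and 26.8% of all tested genes. Without OGD replicate 1 the rises numbered 6, and with the replicate number as a block 8. Gramd1a, an endoplasmic reticulum protein that brings cholesterol in from the plasma membrane, changed most, from 14.1 ± 0.738 to 37.0 ± 8.14 FPKM (SD, n = 4 each; log2 change 1.30 ± 0.13 SE, limma, adjusted p = 2.50e-05). Its relative Gramd1b rose by 0.77, and Gramd1c, at 0.39, did not pass. Vldlr, a lipoprotein receptor, rose from 15.1 ± 1.29 to 34.5 ± 2.18 FPKM (SD, n = 4 each; log2 change 1.15 ± 0.08 SE, limma, adjusted p = 1.59e-06), and its relative Lrp8 by 0.59. The largest falls were those of Apod, a small apolipoprotein of glia (-0.96), Dhdds, of dolichol synthesis (-0.67), and Cyb5b, a cytochrome b5 of the mitochondrial outer membrane (-0.60).

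Further members of that list touch the steps above and were picked after their values had been seen. Por, the reductase that feeds electrons to Cyp51 and Sqle, stood at 23.8, 23.7, 23.6 and 23.7 FPKM in the controls and at 28.6, 30.8, 30.6 and 30.5 FPKM in OGD samples (log2 change 0.33 ± 0.06 SE; limma, adjusted p = 8.25e-04). The cytochrome b5 system, which feeds Msmo1 and Sc5d, went the other way: Cyb5r3, the b5 reductase, fell by 0.49 and Cyb5a by 0.24 on the log2 scale. Of the 2 proteases that release SREBPs in the Golgi, Mbtps1 fell from 31.4 ± 1.94 to 25.3 ± 1.27 FPKM and Mbtps2 rose from 6.51 ± 1.29 to 9.61 ± 0.563 FPKM (SD, n = 4 each). Of the liver X receptors, Nr1h2 did not pass (18.4 ± 1.12 and 20.0 ± 1.87 FPKM) and Nr1h3 was under the filter, at 0.485 ± 0.136 and 0.107 ± 0.0988 FPKM.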

How the data were processed

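RNA was sequenced on an Illumina MiSeq from strand-specific Agilent libraries of 8 samples, per the labels' protocols and the series design. The authors deposited 1 table of FPKM values, per the file headers. Reads were handled with Trimmomatic and FastQC on build rn6 (Rnor_6.0), per the submitters' processing notes. For the aligner, FPKM program, annotation and strand setting, names were not given in the sources used here, so overlapping genes are uncertain.

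FPKM holds no counts, and is relative to each library's total. Rows reaching 1 FPKM in 4 or more samples were tested on log2(FPKM + 1) with limma 3.58.1 in R 4.3.3 (trended, group only), which understates changes of low genes. Fold values are ratios of mean FPKM. Samples were grouped by title. The genes and lists were chosen with earlier results of these data known. Named were all 31 genes, the 6 largest called changes in each of 2 further lists, and the 2 highest markers of each cell type. Other genes of the lists were named after their values had been seen. A list symbol on several rows (1 symbol) took the row with the highest mean.

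Relative depth came from 1200 to 1502 genes of at most 0.5 FPKM shared with control replicate 1, of whose ratios 82.7% to 85.8% were ratios of small whole numbers within 0.01 (log2). In data simulated for this comparison (11149 genes, 50 changed at each fold) the fit found 30% of the genes with a 1.25-fold change, 70% at 1.5-fold, 90% at 2-fold and 100% at 4-fold. Of its 153 calls 8 were false. Far fewer genes were changed there than the 49.5% called in the data, so these rates cannot be carried over to the data. No 2 samples held identical values. Alternatives were 3 scalings, 2 filters, a pseudocount of 0.1, no trend, a replicate block and each sample left out, and, chosen after seeing the data, replicate 4 of both groups left out. Python 3.11.15 with numpy 2.4.6, pandas 2.3.3 and, for plots, matplotlib 3.10.9 served for the rest.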

Additional observations from a re-analysis of the deposited data

Results flagged for a closer look

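A gap between 1 library and its 3 companions took up most of the group's range in 3 of the 62 combinations of gene and group; chance alone gives about 3.1. Pmvk in OGD replicate 3 was at 31.8 FPKM, with the others at 19.3 to 21.1 FPKM. Idi1 in the same library was at 72.5 FPKM, with the others at 58.2 to 59.8 FPKM. Lss in control replicate 3 was at 55.3 FPKM, with the others at 62.6 to 63.0 FPKM.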

How the results depend on the processing

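Of the 16 calls among the 31 genes, 14 kept their direction and their side of the threshold under every alternative that tested them; the exceptions were Ebp and Soat1, and Abcg1 was not tested with a filter of 5 FPKM. The number of rises among the 31 ranged from 11 to 15 and that of falls from 2 to 4. Rises in the further sterol list numbered 11, and 6 to 10 with single libraries left out (6 without OGD replicate 1). With values median-centred 2243 of all tested genes rose and 3245 fell, and rescaled outside mitochondrially encoded genes 2683 and 2664. No alternative moved the median of all genes by more than 0.1 on the log2 scale. Genes that did not pass changed sign close to 0. Lss (-0.00979) was at 0.0609 with quantile normalization, at 0.0271 when rescaled outside mitochondrially encoded genes and at -0.116 to 0.111 with single libraries left out. Nsdhl (0.00334) was at -0.0208 with quantile normalization, at -0.0292 with median-centring, at -0.0273 to 0.0311 with single libraries left out and at -4.83e-04 without replicate 4 of both groups. Mylip (-0.107) was at 0.0162 with quantile normalization and at -0.168 to 0.00197 with single libraries left out. Mvk (0.0601) was at -0.0267 to 0.144 with single libraries left out. The cause was not tested. Same-numbered samples deviated together with correlations from -0.22 to 0.16 across genes, so the numbers were not taken as pairs. With the replicate number as a block 13 of the 31 rose and 3 fell, and 2497 of all genes rose and 3012 fell. The block lowered the SE of Apoe from 0.184 to 0.0805 and of Npc2 from 0.142 to 0.0716, and raised that of Abcg1 from 0.126 to 0.137. A correlation across genes cannot exclude pairing in single genes. Depth is known only between samples, so no counting interval could be given, and levels near 1 FPKM (Srebf1, Mylip) are the least precise.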

Other observations

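Fatty acid genes known as targets of SREBP-1 were read in the same libraries. Of 12 tested, 4 rose, 3 fell and 5 did not pass, with a median log2 change of 0.03. These shares, 33.3% up and 25.0% down, lie near those of all tested genes (22.7% and 26.8%). Scd, a desaturase, rose from 8.66 ± 0.665 to 20.6 ± 0.896 FPKM, while Scd2, the more abundant desaturase, fell from 374 ± 27.4 to 268 ± 5.21 FPKM (SD, n = 4 each; limma, adjusted p = 1.32e-06 and 2.16e-04). Acly and Acss2, which make cytosolic acetyl-CoA, rose by 0.40 and 0.47 on the log2 scale, and Mid1ip1, an activator of acetyl-CoA carboxylase, by 0.59. Acaca, the carboxylase itself, fell by 0.39, and Fasn stood at 66.5 ± 6.90 and 68.0 ± 6.13 FPKM (SD, n = 4 each; limma, adjusted p = 0.788). Values of Scd and Scd2 are uncertain, since close copies can share reads. Thrsp and Elovl6 were listed at 0 in all samples.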
